A study of Mus musculus with 6 samples.

Results

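The genes of the proteasome, the protease that removes ubiquitin-tagged proteins, were followed in mouse blastocysts after knockdown of Eif4a3. They were taken by name: every symbol made of Psma, Psmb, Psmc, Psmd or Psme and a number, without pseudogenes, which gave 45 of the 55378 genes in the deposited table. Of these, 44 encode proteasome subunits, assembly chaperones or activators. The remaining gene, Psmc3ip, matched by name only and encodes a meiotic recombination factor (Hop2). In all, 43 genes passed the filter on low counts and were tested; Psmb8 and Psmb11 did not.

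The Eif4a3 knockdown group (siRNA-Eif4a3) held 3 libraries and the negative control group (siRNA-NC) held 3 libraries. In each, siRNA was injected into zygotes, and polyadenylated RNA of pools of 5 embryos was sequenced by Smart-seq2 on day 5. Both groups share the injection and the culture. The labels name no strain, parental age or sequence of either siRNA, and they do not say whether pools came from separate parents, so p-values measure the spread between these libraries, which may be technical.

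The barrel-shaped core particle stacks outer rings of alpha subunits, which gate the entrance, on inner rings of beta subunits, some of which are the proteases. The regulatory particle sits on its ends. Its base holds the ATPases that unfold substrates and receptors for ubiquitin, and its lid holds the deubiquitinase Psmd14 and its scaffold. Eif4a3 encodes the RNA helicase of the exon junction complex, which is deposited on spliced RNA and takes part in nonsense-mediated decay of transcripts whose stop codon lies upstream of a junction.

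Eif4a3 itself was at 16.0, 36.2 and 56.2 CPM (counts scaled to the effective library size) in knockdown embryos, against 302, 255 and 202 CPM in NC embryos. Knockdown libraries were all lower, by 7.0-fold in the means (log2 fold change −2.81, SE 0.44; edgeR quasi-likelihood adjusted p = 0.00512). Counts summed over exon blocks were 16157719 to 18697754 per knockdown library and 15607227 to 18389986 per NC library. Defining markers of the blastocyst lineages were detected in both groups, but the groups differed in them: the summed level was 490.5 to 2137 CPM in knockdown against 2116 to 5630 CPM in NC for 8 trophectoderm markers (4 of 7 tested lower), 79.8 to 87.7 against 300 to 312 CPM for 7 primitive endoderm markers (4 of 6 tested lower), and 136 to 166 against 368 to 529 CPM for 7 epiblast markers (2 of 7 lower). Single genes led 2 of these sums in NC: Sparc (mean 11.6 CPM in knockdown, 182 in NC) for primitive endoderm and Tdgf1 (5.03 and 182) for epiblast. The keratins Krt8 (641 and 1714) and Krt18 (445 and 1741) led the trophectoderm sum. Gata6 was at 58.3 CPM in knockdown and 63.5 CPM in NC (edgeR adjusted p = 0.794). Neither Gata6 nor Gata4 passed, nor did Pou5f1, Nanog, Klf2, Fgf4 or Esrrb, nor the trophectoderm markers Cdx2, Tfap2c and Krt8. All 10 markers of the 2-cell stage were higher, with a sum of 100 to 320.5 CPM in knockdown and 0.525 to 0.746 CPM in NC. Of 8 cumulus markers, 5 were at 0 in every library. Other lists were not empty. The 7 blood and immune markers summed to 46.9 to 159 CPM in knockdown and 31.7 to 76.8 CPM in NC (1 of 6 tested lower). The 6 fibroblast markers summed to 1.02 to 10.7 CPM in knockdown and 1.99 to 12.7 CPM in NC (none of 3 tested passed). The 8 oocyte markers summed to 13.8 to 47.0 CPM in knockdown and 66.5 to 117 CPM in NC (1 of 4 tested higher, 1 lower). Ooep, the lower call, led this sum (mean 26.9 CPM in knockdown, 93.3 in NC). Oosp1 was the higher call (mean 0.969 CPM in knockdown, 0 in NC). Zp1, Zp2, Gdf9, Bmp15 and Nlrp5 had higher means in knockdown, at most 1.42 CPM there, and Zp3 had a lower mean. The source of the RNA in these lists was not tested. In pooled embryos, fewer cells of a type and less RNA per cell cannot be told apart, and the part of embryo makeup in the values below was not tested.

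Proteasome RNA added up over all constitutive subunits differed between knockdown and NC embryos by less than the spread between libraries, and few single genes passed the test. The 31 constitutive genes of core, base and lid summed to 29584 ± 4993 CPM in knockdown and 29559 ± 4651 CPM in NC (SD, n = 3 each), a ratio of 1.0. Among the 43 genes tested, Psma8 and Psmc3ip rose, Psmd3 fell, and 40 did not pass an adjusted p of 0.05. Over all 15619 genes tested the same rule called 7.52% higher (1174 genes) and 5.56% lower (869 genes), so 2 and 1 of 43 are not more than the background. Leaving out any NC library removed both higher calls, leaving out any knockdown library left 1 of them, and the lower call was lost in 4 of the 6 fits without a library. All 3 knockdown libraries lay above all 3 NC libraries for 3 of the 43 (Psma8, Psmd8, Psmc3ip), against 20.1% of all genes, and below them for 7 (Psmc2, Psmd1, Psmd12, Psmd3, Psme2, Psme2b, Psme4), against 16.4% of all genes. The median log2 fold change was −0.07 over the 43 genes and 0.03 over all genes.

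Exons were tested as well. In a test of usage, which asks whether an exon block moved apart from the other blocks of its own gene, 2 of 378 proteasome blocks tested passed and both were higher in knockdown. Over all 67890 blocks tested, 0.124% were called higher and 0.0442% lower. The 2 blocks, in the lid gene Psmd11 and the base gene Psmc6, are exons that no annotated coding transcript contains, and each brings an in-frame stop codon. Both met the filter on low counts only with the knockdown libraries, where they were high, so their shared direction carries no weight. Among all internal blocks outside coding transcripts, tested under the same filter, 2.0% of 1552 were called higher. None of the 375 tested proteasome blocks in coding transcripts passed. The 2 blocks are described with their genes.

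**Figure D1:**
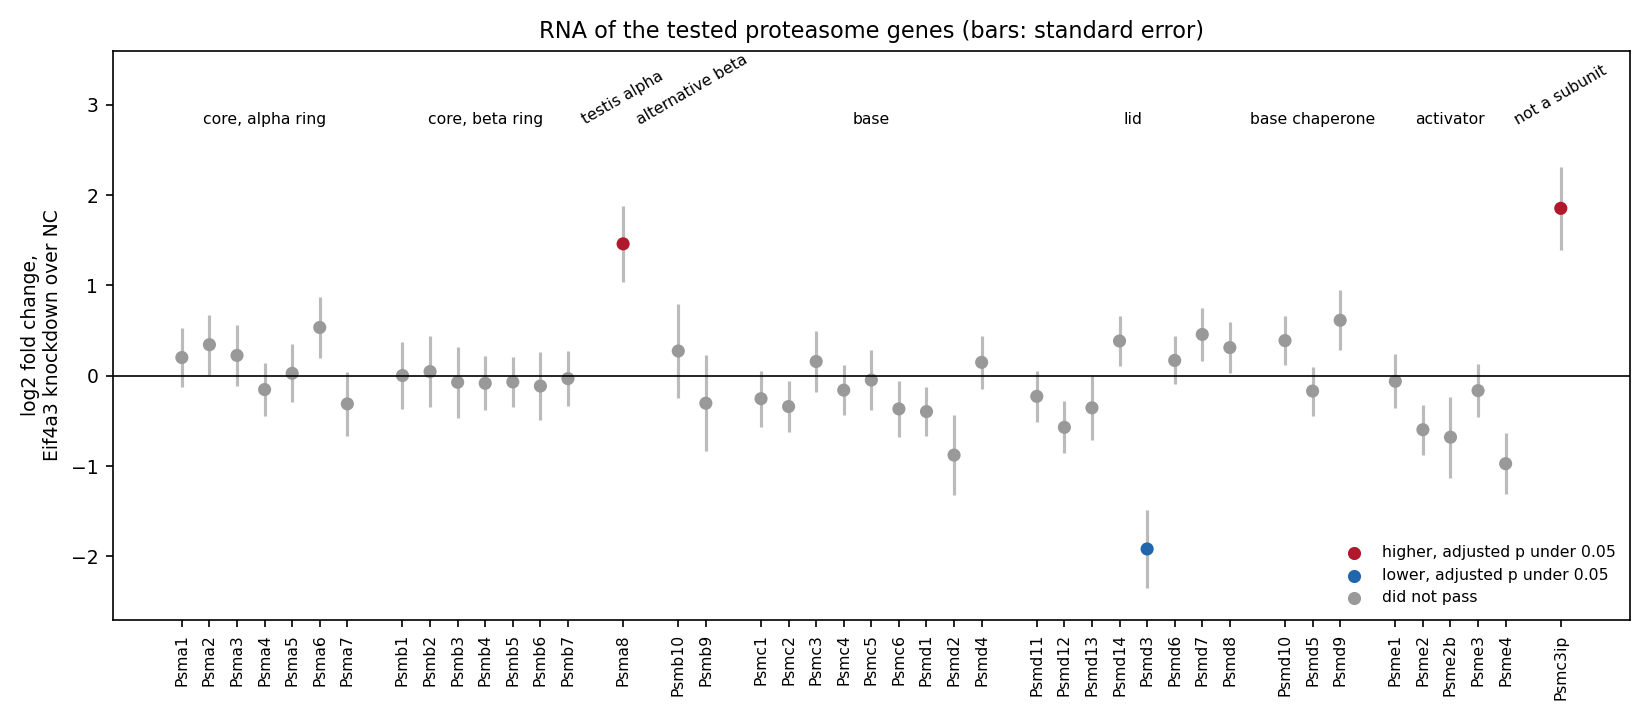
Log2 fold change of each tested gene, Eif4a3 knockdown over NC (vertical axis; bars give the standard error of the edgeR fit), grouped by place in the proteasome along the horizontal axis. Psma8 (1.46) and Psmc3ip (1.85) passed above 0 and Psmd3 (−1.92) below it; the activators Psme4 (−0.97) and Psme2 (−0.60) lie below 0 without passing.

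The alpha ring, whose subunits form the outer gate of the core, had no gene that passed among 7 tested. Its log2 fold changes ran from −0.31 (Psma7) to 0.54 (Psma6), with a median of 0.20. The smallest p was that of Psma6, the alpha1 subunit, at 1158, 1929 and 2114 CPM in knockdown and 906, 1328 and 1354 CPM in NC (log2 fold change 0.54, SE 0.34; edgeR adjusted p = 0.317). The groups overlapped, because knockdown replicate 1 lay inside the NC range. Psma2, the alpha2 subunit, was at 1607, 2861 and 2776 CPM in knockdown and 1563, 2036 and 2107 CPM in NC (0.34, SE 0.33; edgeR adjusted p = 0.526), and again only knockdown replicate 1 fell within the NC values.

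The beta ring, which carries the proteases, was the group with the narrowest range. Its 7 log2 fold changes lay between −0.11 and 0.05, with a median of −0.07, and none passed. The caspase-like protease Psmb6 was at 924, 1631 and 1742 CPM in knockdown and 935, 1708 and 2006 CPM in NC (−0.11, SE 0.38; edgeR adjusted p = 0.873). The non-catalytic beta7 subunit Psmb4 was at 739, 1046 and 1008 CPM in knockdown and 775, 1094 and 1089 CPM in NC (−0.08, SE 0.30; edgeR adjusted p = 0.882). In both genes replicate 1 was the low library in each group. The other proteases, the trypsin-like Psmb7 and the chymotrypsin-like Psmb5, had log2 fold changes of −0.03 (SE 0.30) and −0.07 (SE 0.28).

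Replicate 1 was the lowest library of each group for the core. The core rings summed to 13245, 23334 and 22751 CPM in knockdown libraries 1, 2 and 3 and to 14346, 19823 and 22432 CPM in NC libraries 1, 2 and 3. The base and lid together summed to 10589.6, 8744 and 10087 CPM in knockdown, where replicate 1 was the highest, and to 10126, 10788 and 11163 CPM in NC, where replicate 1 was the lowest but by less than for the core. The core sum was therefore 1.25, 2.67 and 2.26 times the base and lid sum in knockdown libraries 1, 2 and 3, and 1.42, 1.84 and 2.01 times in NC libraries 1, 2 and 3. The spread of the core between libraries of a group exceeded the difference between the groups. Without replicate 1 of both groups, a fit added after these sums were seen, Psma8 (edgeR adjusted p = 0.108) and Psmc3ip (0.0512) no longer passed, Psmd3 still did (0.0430), and Psmd2 passed as well (−1.53; 0.0220).

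**Figure D2:**
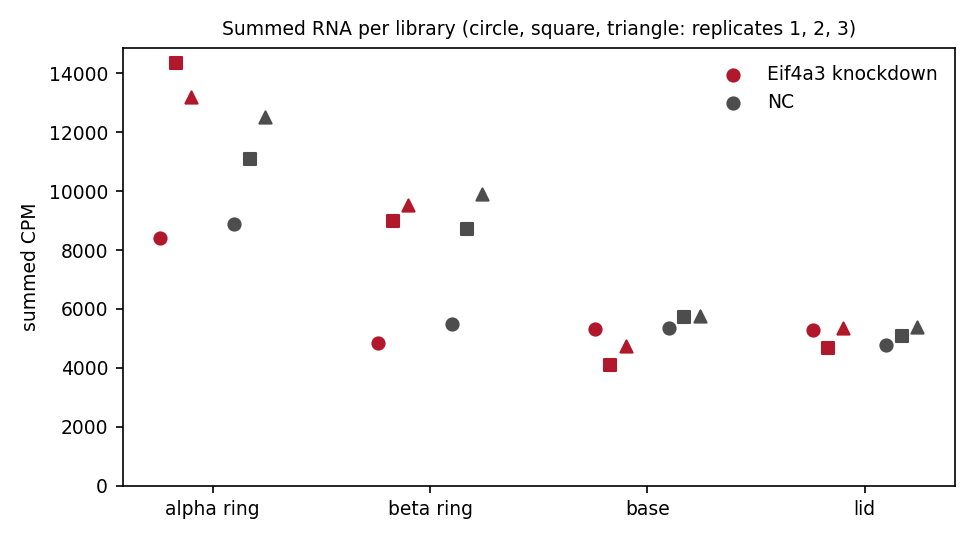
Summed CPM of the 7 alpha ring, 7 beta ring, 9 base and 8 lid genes in each library, Eif4a3 knockdown left of NC. Replicate 1 (circles) is lowest in both rings in each group, at 8394 and 4852 CPM in knockdown and 8871 and 5475 CPM in NC, while base sums are lower in all 3 knockdown libraries than in NC.

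Psma8, the paralog of Psma7 known from the testis form of the core, was the only core gene that passed. It was at 12.4, 21.3 and 8.73 CPM in knockdown and 4.73, 4.91 and 5.77 CPM in NC. Every knockdown library exceeded every NC library, by 2.76-fold in the means (log2 fold change 1.46, SE 0.42; edgeR adjusted p = 0.0459). Per kilobase of merged exon blocks it stayed far below its paralog, at 5.68 CPM in knockdown and 2.06 CPM in NC. Psma7 had 487 CPM in knockdown and 604 CPM in NC. These levels are approximate, since lengths were those of whole blocks and counts those of the most counted line in each. The other 6 sperm and testis markers summed to 0.969 to 3.37 CPM in knockdown and 1.04 to 2.49 CPM in NC. The adjusted p was close to the threshold: it was 0.0401 without knockdown replicate 3, and the call was lost without knockdown replicate 1 (0.0555) or 2 (0.156) or NC replicate 1 (0.123), 2 (0.149) or 3 (0.0985).

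The alternative beta subunits, which replace the constitutive proteases in immune and thymic cells, stayed low in both groups. The immunoproteasome protease Psmb9 was at 9.70, 7.09 and 16.5 CPM in knockdown and 5.07, 14.2 and 21.9 CPM in NC (−0.30, SE 0.53; edgeR adjusted p = 0.741). Its partner Psmb10 was at 9.14, 21.5 and 28.9 CPM in knockdown and 6.91, 22.3 and 20 CPM in NC (0.27, SE 0.52; edgeR adjusted p = 0.763). The groups overlapped in both. The protease Psmb8 had 7, 6 and 8 counts in knockdown and 4, 1 and 0 in NC, too few to be tested.

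The base, which holds the 6 ATPases and the large scaffold subunits, had no gene that passed among 9 tested. Its median log2 fold change was −0.25, from −0.88 (Psmd2) to 0.16 (Psmc3), with 7 of 9 below 0, beside 7617 of 15619 among all genes. The median was −0.055 without knockdown replicate 2. The summed base RNA was 4713 ± 614 CPM in knockdown and 5614 ± 218 CPM in NC (SD, n = 3 each), and the highest knockdown library (5309 CPM) lay just under the lowest NC library (5364 CPM). The ratio of lid to base sums was 0.995, 1.14 and 1.12 in knockdown and 0.888, 0.888 and 0.936 in NC, without overlap. Among single genes, such separation was common, with knockdown fully below NC for 16.4% and fully above for 20.1% of all tested.

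Psmd2, the scaffold subunit Rpn1 that docks ubiquitin receptors, was at 432, 133 and 148 CPM in knockdown and 521, 443 and 346 CPM in NC. Knockdown libraries 2 and 3 were low, and knockdown replicate 1 lay within the NC range. The fold change did not pass (−0.88, SE 0.45; edgeR adjusted p = 0.217), and without knockdown replicate 1 it did (−1.68; edgeR adjusted p = 0.0125). The other large scaffold, Psmd1 (Rpn2), was at 454, 349 and 326 CPM in knockdown and 459, 480.4 and 546 CPM in NC (−0.40, SE 0.28; edgeR adjusted p = 0.364), with all knockdown libraries below all NC libraries. Of the 6 ATPases, 5 had log2 fold changes between −0.37 (Psmc6) and −0.05 (Psmc5).

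The ATPase gene Psmc6 (Rpt4) carried an extra exon in knockdown embryos while its total RNA did not pass the test (−0.37, SE 0.31; edgeR adjusted p = 0.463). Block 2 of its 14 blocks, chr14:45330366-45330521 on the plus strand (GRCm38, 156 nt), lies between the first and second coding exons and occurs only in a transcript annotated for nonsense-mediated decay and in a non-coding transcript. Read in frame from the first exon of the coding transcript, it reaches a stop codon at its base 63, after 49 coding codons in place of 389, with 1057 bases left to the last junction. The stop lies where GENCODE places it (45330428). The sequence is shown to the end of that stop codon, which is in capitals.
Psmc6 extra exon: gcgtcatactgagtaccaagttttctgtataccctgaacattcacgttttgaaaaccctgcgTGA

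The block had 61, 36 and 47 counts in knockdown and 13, 10 and 3 counts in NC. Relative to the mean count of the blocks on either side this was 9.73%, 5.93% and 7.67% in knockdown and 1.94%, 1.94% and 0.461% in NC. All knockdown libraries were above all NC libraries, by 5.38-fold in the means (7.77% ± 1.90 against 1.45% ± 0.85, SD, n = 3 each; exact permutation p = 0.10, the smallest this design allows). Its usage rose by 2.71 on the log2 scale relative to the rest of Psmc6 (edgeR diffSpliceDGE adjusted p = 0.0106). The call rests on few counts: it was lost without NC replicate 1 (0.0534), NC replicate 2 (0.118), NC replicate 3 (0.558) or knockdown replicate 3 (0.0957).

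The lid had 1 gene that passed among 8, and its median log2 fold change was −0.03. Its sum differed by less than the spread between libraries, at 5094 ± 375 CPM in knockdown and 5078 ± 318 CPM in NC (SD, n = 3 each). The deubiquitinase Psmd14 (0.39, SE 0.28) and its partner Psmd7 (0.46, SE 0.30) lay above 0 without passing.

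Psmd3, the scaffold subunit Rpn3, fell. It was at 36.8, 22.8 and 28.3 CPM in knockdown and 175, 107 and 50.6 CPM in NC. All knockdown libraries lay below all NC libraries, although the NC libraries were themselves spread widely, and the means differed by 3.78-fold (−1.92, SE 0.43; edgeR adjusted p = 0.0191). The call was lost without NC replicate 1 (0.0672), NC replicate 2 (0.0587), knockdown replicate 2 (0.0761) or knockdown replicate 3 (0.0593). Per kilobase of merged exon blocks, an approximate level as for Psma8, Psmd3 was the lowest constitutive subunit in NC. It had 22.3 CPM against 68.2 CPM for Psmd1, the next.

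The lower level of Psmd3 held along the gene. Its first 5 blocks summed to 13.1, 5.68 and 4.67 CPM in knockdown and 69.2, 34.7 and 13.9 CPM in NC, with means 5.01-fold lower in knockdown. Its last 5 blocks summed to 22.1, 19.8 and 25.5 CPM in knockdown and 96.6, 72.9 and 36.5 CPM in NC, with means 3.06-fold lower in knockdown. Coverage of its 5′-most blocks relative to its 3′-most blocks, each stretch taking 1 in 3 of its blocks, was −1.15, −2.41 and −3.38 (log2) in knockdown and −0.79, −1.55 and −1.92 in NC. Over all genes that median was −1.11 to −1.49 in knockdown and −1.40 to −1.61 in NC. The part of 5′ loss in the Psmd3 values was not tested.

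Psmd12, the scaffold subunit Rpn5, had the next smallest p in the lid. It was at 622, 442 and 479.7 CPM in knockdown and 627, 814 and 851 CPM in NC, all knockdown libraries below all NC libraries, without passing (−0.57, SE 0.29; edgeR adjusted p = 0.215).

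**Figure D3:**
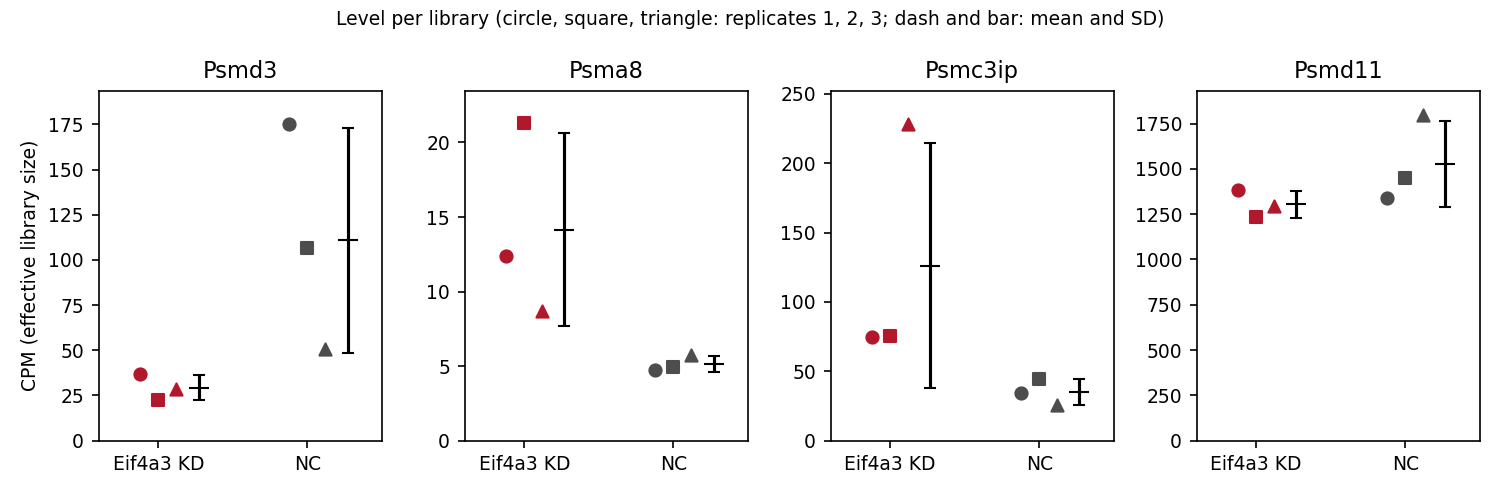
CPM per library of the genes that passed (Psmd3, Psma8, Psmc3ip) and of Psmd11, Eif4a3 knockdown left of NC; points are libraries and the dash with bar is the mean with SD (n = 3). Psmd3 is lower and Psma8 and Psmc3ip are higher in every knockdown library, with the widest spread in knockdown for Psmc3ip (74.9 to 228 CPM), and Psmd11 overlaps between groups.

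Psmd11, the subunit Rpn6 that clamps the lid to the core, did not differ in total RNA beyond the spread between libraries. It was at 1385, 1237 and 1293 CPM in knockdown and 1341, 1448 and 1795 CPM in NC, with overlap between the groups (−0.23, SE 0.28; edgeR adjusted p = 0.632). Its exons split into 14 blocks, and 13 of them were counted often enough to be tested for usage. Of these, 12 moved together: their usage differed by −0.06 to 0.14 on the log2 scale, with no unadjusted p under 0.718.

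Block 5 of Psmd11 stood apart. It spans chr11:80438505-80438630 on the plus strand (GRCm38, 126 nt), lies in the intron after exon 3 of the coding transcript, and is annotated only in transcripts marked for nonsense-mediated decay. The annotation gives 2 starts for this exon, 80438505 and 80438521, and the deposited counts of the 126-nt and the 110-nt form were identical in every library, so these could not be told apart. Both forms hold an in-frame stop codon, at base 31 of the longer and base 7 of the shorter, as annotated. A transcript with the longer form encodes 116 codons before the stop, one with the shorter form 108, against 422 in the coding transcript, with 1044 and 1052 bases left to the last junction. The sequences are shown to the end of the stop codon (capitals); the shorter form begins 16 bases inside the longer one and is read in another frame.
Psmd11 extra exon, longer form: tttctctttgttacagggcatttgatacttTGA
Psmd11 extra exon, shorter form: ggcattTGA

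The block had 151, 95 and 87 counts in knockdown and 3, 8 and 19 counts in NC. The block before it (125 nt) had 2275, 1481 and 1572 counts in knockdown and 2082, 1586 and 1962 in NC. The block after it (72 nt) had 2425, 1511 and 1637 counts in knockdown and 2103, 1593 and 1984 in NC. So the flanking exons were counted about equally in both groups and the exon between them was not.

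As a share of the mean count of those flanking blocks, block 5 was at 6.43%, 6.35% and 5.42% in knockdown and 0.143%, 0.503% and 0.963% in NC. The mean was 6.07% ± 0.56 in knockdown and 0.537% ± 0.411 in NC (SD, n = 3 each), an 11.3-fold difference without overlap (exact permutation p = 0.10, the smallest this design allows). Usage of the block rose by 3.47 on the log2 scale relative to the rest of the gene (edgeR diffSpliceDGE adjusted p = 3.9e-06). For the gene as a whole the Simes test gave an adjusted p of 7.1e-06 by the same tool, where 0.906% of 9494 genes passed. The call held without any single library, with usage between 3.06 and 4.26 and adjusted p up to 0.0084.

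**Figure D4:**
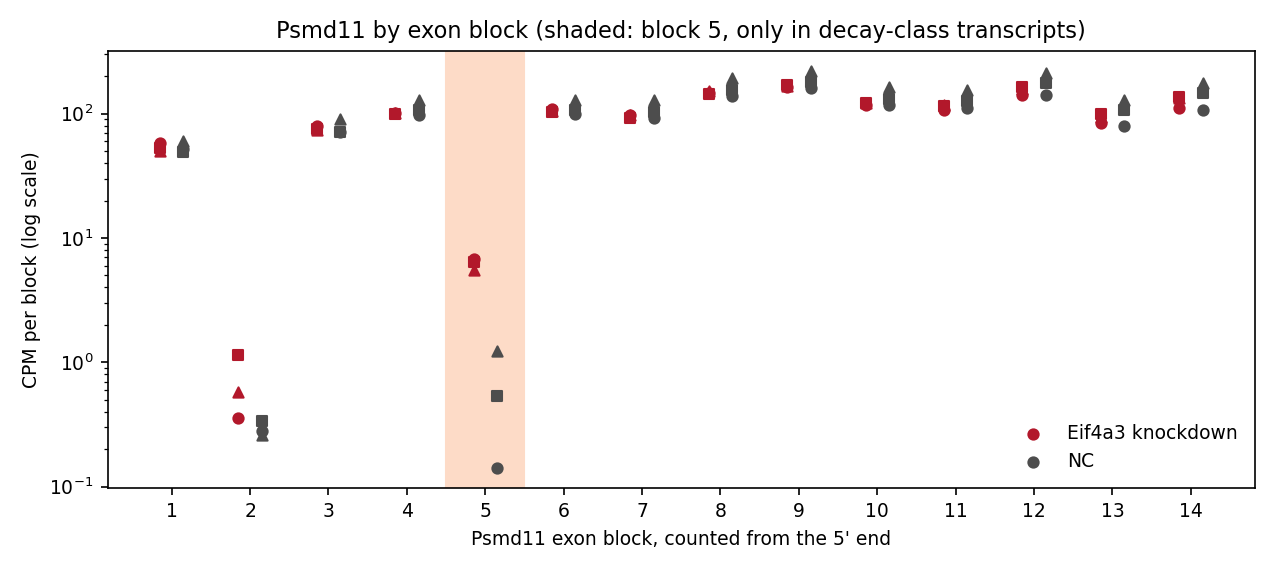
CPM of each Psmd11 exon block on a log scale, numbered from the 5′ end, in the 3 Eif4a3 knockdown libraries (left of each number) and the 3 NC libraries (right). The groups run together except at the shaded block 5, where knockdown libraries had 5.57 to 6.77 CPM and NC libraries 0.141 to 1.24 CPM; block 2, with 4 to 17 counts per library, was too low to be tested.

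Psmd14, the lid deubiquitinase, had a tested block outside coding transcripts that did not pass. Unlike the blocks of Psmd11 and Psmc6 it is not internal, and no stop codon was sought in it. Block 11 of its 16 blocks (chr2:61765386-61765508, 123 nt) is the end of a non-coding transcript. It had 97, 30 and 54 counts in knockdown and 21, 4 and 3 counts in NC. These are 3.51%, 1.84% and 2.46% of the mean of its neighbours in knockdown and 1.26%, 0.304% and 0.202% in NC, without overlap. The log2 usage difference was 2.22 (edgeR diffSpliceDGE adjusted p = 0.0674). It passed without NC replicate 1 (0.0292), and with limma's diffSplice in place of edgeR (0.00028). It did not pass without NC replicate 2 (0.99999) or 3 (0.972) or without knockdown replicate 1 (0.229), 2 (0.0914) or 3 (0.163). Nor did it pass with blocks of at least 10 counts (0.105).

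**Figure D5:**
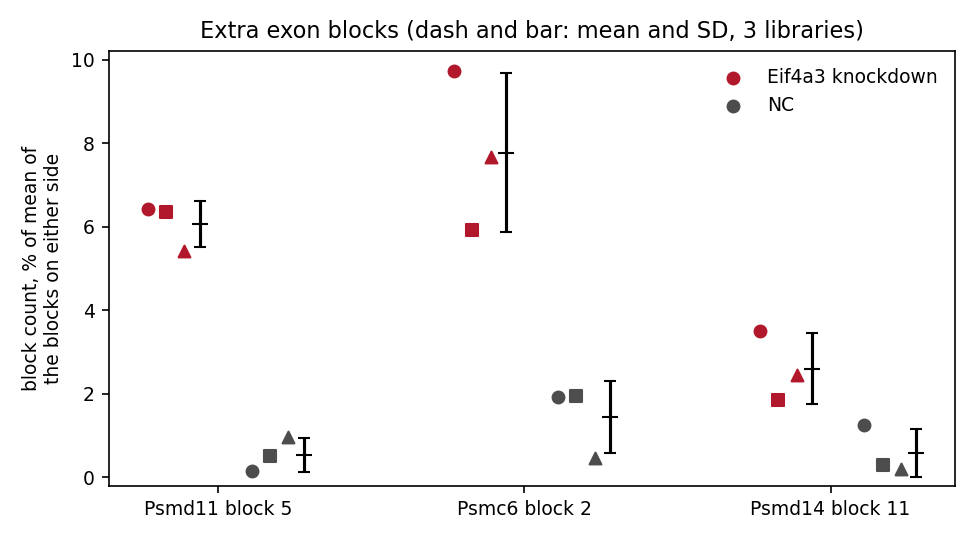
Count of each extra exon block as a percent of the mean count of the blocks on either side, per library, Eif4a3 knockdown left of NC, with mean and SD (n = 3). Knockdown libraries lie above NC libraries in all 3 blocks, at 5.42 to 6.43% against 0.143 to 0.963% for Psmd11 block 5. All 3 met the filter on low counts only with the knockdown libraries, so their shared direction carries no weight. The Psmd14 block is the end of a non-coding transcript, unlike the internal blocks of Psmd11 and Psmc6.

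The remaining proteasome exons gave no further call. The 45 genes hold 430 blocks, of which 378 in 42 genes were tested. Of 375 tested blocks that belong to a coding transcript none passed (edgeR diffSpliceDGE, smallest adjusted p = 0.529), and the share called higher among all such blocks in the table was 0.0555%. At an unadjusted p under 0.05 there were 9 proteasome blocks in all, the 2 called ones included. Of 18 blocks outside coding transcripts only 3 were counted often enough, those of Psmd11, Psmc6 and Psmd14. All 3 met the filter on low counts only with the knockdown libraries, where they were high. Among all internal blocks outside coding transcripts in the table, 2.0% of 1552 tested under the same filter were called higher (31 blocks) and 0.0644% lower (1 block).

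The 3 chaperones that assemble the base did not pass. Psmd9 (p27) was at 68.3, 58.7 and 92.3 CPM in knockdown and 63.3, 48.5 and 31.4 CPM in NC (0.61, SE 0.33; edgeR adjusted p = 0.245). Psmd10 (gankyrin) was at 97.8, 125 and 145 CPM in knockdown and 90.7, 89.6 and 101 CPM in NC (0.39, SE 0.27; edgeR adjusted p = 0.361). Knockdown replicate 2 in Psmd9 and knockdown replicate 1 in Psmd10 fell within the NC range.

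The 5 activators, which open the core without the base and lid, all had negative fold changes (median −0.60) and none passed; Psme1 (PA28 alpha), at −0.06, was just above 0 on its most counted block (0.011) and at a filter of 5 CPM (0.0041). Psme4 (PA200), the large nuclear activator, was at 31.2, 57.4 and 32.4 CPM in knockdown and 98.4, 78.3 and 61.0 CPM in NC. Every knockdown library was below every NC library, by 1.96-fold in the means (−0.97, SE 0.34; edgeR adjusted p = 0.0826). Psme4 passed with DESeq2 (0.0411) and with no filter on low counts (0.0482). Its lower level did not hold along the gene: blocks 1 to 11 went the other way (mean 8.57 CPM in knockdown, 4.83 in NC), as given under Other observations. Psme2 (PA28 beta) was at 94.1, 121 and 92.6 CPM in knockdown and 124, 168 and 174 CPM in NC, with all knockdown libraries lower (−0.60, SE 0.28; edgeR adjusted p = 0.175). Psme2b, an intronless copy of Psme2, was at 2.20 to 3.39 CPM in knockdown and 3.58 to 4.85 CPM in NC, and reads of such copies may be split between them.

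Psmc3ip, the recombination factor that shares only the name, rose. It was at 74.9, 75.8 and 228 CPM in knockdown and 34.2, 44.7 and 25.9 CPM in NC, without overlap but with knockdown replicate 3 far above the other libraries (1.85, SE 0.46; edgeR adjusted p = 0.0279). The call was lost without knockdown replicate 3 (0.0762), NC replicate 1 (0.0799), NC replicate 2 (0.0692) or NC replicate 3 (0.100).

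Of 94 further genes of the ubiquitin and proteasome pathway and its relatives, 91 were tested, 6 rose and 3 fell, shares not above the 7.52% higher and 5.56% lower among all genes. In a list of 9 assembly chaperones, of which 8 were tested, the 3 base chaperones included, Psmg3, part of the chaperone pair that helps build the alpha ring, rose and none fell. Psmg3 was at 72.2, 76.2 and 98.1 CPM in knockdown and 26.1, 32.1 and 38.1 CPM in NC, 2.56-fold higher and without overlap (1.36, SE 0.29; edgeR adjusted p = 0.0153). It no longer passed without NC replicate 1 (0.0636) or NC replicate 2 (0.0741).

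Of proteins that bind the proteasome or carry substrates to it, 4 rose and 1 fell of 17 tested, beside 7.52% higher and 5.56% lower among all genes and a list median of −0.13; whether this list differs from the others was not tested. Zfand5, a zinc finger protein known to activate the proteasome, was at 99.4, 140.2 and 117 CPM in knockdown and 38.9, 41.6 and 34.1 CPM in NC (1.63, SE 0.28; edgeR adjusted p = 0.00639). The proteasome-bound deubiquitinase Uchl5 was at 465, 360.3 and 494 CPM in knockdown and 170.1, 186 and 196 CPM in NC (1.25, SE 0.27; edgeR adjusted p = 0.0163). In both genes all knockdown libraries were above all NC libraries. The shuttle factor Ubqln4 fell, at 2.25, 1.27 and 0.782 CPM in knockdown and 9.30, 5.84 and 6.37 CPM in NC (−2.31, SE 0.52; edgeR adjusted p = 0.0196). The other 2 that passed, named after their values were seen, were Psmf1 (PI31), a core inhibitor in vitro, with a log2 fold change of 1.12, and Zfand2a, a stress-induced zinc finger protein, with 1.18. Zfand5 passed without any single library. Uchl5 did not pass without NC replicate 1 (0.0607), 2 (0.0787) or 3 (0.0574), Psmf1 without NC replicate 1 (0.0789), 2 (0.0757) or 3 (0.0993) or knockdown replicate 2 (0.0595) or 3 (0.0737), and Zfand2a without the same libraries (0.0576 to 0.126). Ubqln4 did not pass without NC replicate 1 (0.0662) or 2 (0.0522) or knockdown replicate 2 (0.0632) or 3 (0.0524).

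In the list of ubiquitin genes and enzymes that load it, 2 of 13 fell and none rose, beside 5.56% lower and 7.52% higher among all genes. Uba1, the main ubiquitin-activating enzyme, was at 59.8, 74.6 and 69.7 CPM in knockdown and 278, 255 and 173 CPM in NC, 3.46-fold lower (−1.79, SE 0.29; edgeR adjusted p = 0.00579). Ube2n, the conjugating enzyme of lysine-63 chains, was at 124, 146 and 155 CPM in knockdown and 264, 285 and 361 CPM in NC, 2.14-fold lower (−1.10, SE 0.27; edgeR adjusted p = 0.0273). Neither overlapped between groups. Uba1 passed without any single library, and Ube2n did not pass without NC replicate 2 (0.0694) or 3 (0.0900) or knockdown replicate 2 (0.0755) or 3 (0.0570).

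The other lists gave 1 call. Of 9 tested genes of antigen processing, the peptidase Erap1 passed (edgeR adjusted p = 0.0219), at 1.69, 2.91 and 0.782 CPM in knockdown and at most 0.199 CPM in NC, where counts are too few for a fold. It did not pass without NC replicate 1 (0.0651) or 3 (0.0861) or knockdown replicate 2 (0.0823). None passed of 14 genes of the transcriptional control of the proteasome, where Nfyb had the smallest p (0.79, SE 0.31; edgeR adjusted p = 0.114). None passed of 11 in the list of the segregase Vcp and its cofactors (Vcp −1.01, SE 0.40; edgeR adjusted p = 0.122), of 9 COP9 signalosome genes (Cops2 0.65, SE 0.28; edgeR adjusted p = 0.156) or of 13 genes of the translation factor eIF3 (Eif3b −1.34, SE 0.44; edgeR adjusted p = 0.0741). The proteasome subunits outside the name rule, Adrm1 and Sem1, had log2 fold changes of 0.17 (SE 0.44) and 0.10 (SE 0.39).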

How the data were processed

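Per the submitters' processing notes, the authors used FastQC 0.11.9, fastp 0.20.1, STAR 2.7.6a, featureCounts 2.0.1, R 4.1.1 and DESeq2 1.34.0 with GRCm38. Per the file headers, the deposited values are raw counts of read pairs per annotated exon, strand setting 2, with pairs counted in every exon they overlap. Smart-seq2 usually keeps no strand, so reads of overlapping genes cannot be told apart.

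Overlapping exons of a gene were merged into 291424 blocks from 842173 lines, the most counted line of each was kept, and blocks were summed per gene. The planned tests assumed counts per gene. Pairs that cross junctions count in several blocks, so sums exceed the pairs sequenced. Genes were tested in edgeR 4.0.16 (filterByExpr, TMM, glmQLFit, glmQLFTest, two-sided; Benjamini-Hochberg over 15619 genes, threshold 0.05), blocks with edgeR diffSpliceDGE over 67890 blocks. CPM use effective library sizes. Exon classes and sequences came from GENCODE vM21 (GRCm38). The tests were checked on counts simulated with the same dispersion for every gene and with blocks drawn independently. That check does not cover read pairs counted in several blocks. Alternatives were DESeq2 1.42.0, limma 3.58.1, other scaling, filters, block rules, a replicate block and each library left out. Described with values in every library were the genes that passed, Psmd11 and the 2 genes of smallest p in each subcomplex; from each list, up to 3 that passed or the smallest p. The genes and lists were chosen with earlier results of these data known.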

Additional observations from a re-analysis of the deposited data

How the results depend on the processing

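The usage call of Psmd11 block 5 and the direction of Psmd3, Psma8, Psmc3ip, Psme4 and Psmd2 held under every alternative run. Other scaling moved the median of all genes by less than 0.1 (log2). Depth limits the extra exons: only 3 of 18 blocks outside coding transcripts had enough counts to test, and only with the knockdown libraries. Genes called higher among the 43 numbered 1 when all exon lines were summed and 0 to 1 without single libraries or replicate 1 of both groups (added after the data were seen); genes called lower numbered 2 with DESeq2, 2 with no filter on low counts and 0 to 2 without single libraries. The fold change of Psma8 was 1.36 with all exon lines summed and no longer passed (edgeR adjusted p = 0.0605); without single libraries it was 1.04 to 1.70, and that of Psmd3 −2.28 to −1.43. Over all genes 1829 were higher and 1490 lower with DESeq2, 2089 and 1518 with no filter, and 550 to 1224 and 336 to 1130 without single libraries. Pathway genes called lower numbered 6 with DESeq2, 5 with no filter and 5 on the most counted block, 1 to 5 without single libraries and 6 without replicate 1 of both groups; those higher numbered 2 to 6 without single libraries. The median of the activators was −0.32 among genes of at least 5 CPM in 3 libraries, and that of the base −0.33 to −0.055 without single libraries and −0.42 without replicate 1 of both groups. Blocks called lower numbered 105 with limma, 16 at 10 or more counts and 13 away from other genes, and 4 to 56 without single libraries, where those higher numbered 17 to 98. The cause of these shifts was not tested.

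Whether replicate numbers pair the libraries is not settled by the values. Same-numbered libraries correlated by 0.27, 0.0026 and 0.10 in their deviations from group means. The value of replicate 1 was the highest between any knockdown and NC library, while knockdown replicate 2 and NC replicate 2 did not correlate best with each other. With the replicate block, 1 gene was called higher and 2 lower, Psma8 had a fold change of 1.37 (edgeR adjusted p = 0.0571), Psmd2 passed at −1.08 (0.0473), Psmd14 block 11 passed at 2.41 (0.00886), and 138 blocks were called higher.

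Genes near 0, none of them called, changed sign. Under the block this was Psma5 (−0.0023), Psmb1 (−0.024), Psmb2 (−0.015) and Psmc5 (0.015); with no filter Psma5 (−0.0046) and Psmb1 (−0.030); with all exon lines Psmb1 (−0.0047). At 5 CPM it was Psmb7 (0.034), Psmc5 (0.011) and Psme1 (0.0041), and on the most counted block Psmb4 (0.0049), Psmb7 (0.039) and Psme1 (0.011). Without single libraries, Psma1 ranged from −0.0098 to 0.38, Psma5 from −0.19 to 0.18, Psmb1 from −0.24 to 0.24, Psmb2 from −0.23 to 0.31, Psmb3 from −0.35 to 0.18, Psmb4 from −0.25 to 0.023, Psmb5 from −0.22 to 0.066, Psmb6 from −0.40 to 0.097, Psmb7 from −0.17 to 0.13, Psmb9 from −0.72 to 0.19, Psmb10 from −0.12 to 0.59, Psmc3 from −0.15 to 0.34, Psmc5 from −0.34 to 0.11, Psmd4 from −0.0017 to 0.35 and Psme1 from −0.25 to 0.080.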

Other observations

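Psme4 (PA200) was lower in knockdown only in part of its length. Its 50 exon blocks were split after block 11, a position chosen after the block values were seen, so no test is given. Blocks 1 to 11 held 144, 173 and 118 counts in knockdown and 103, 51 and 95 counts in NC, or 8.57 ± 2.77 CPM in knockdown and 4.83 ± 1.41 CPM in NC (SD, n = 3 each). Blocks 12 to 50 held 522, 775 and 421 counts in knockdown and 1876, 1128 and 834 counts in NC, or 34.3 ± 15.8 CPM in knockdown and 72.8 ± 17 CPM in NC. All knockdown libraries were thus above all NC libraries in the first stretch, by 1.78-fold in the means, and below them in the rest, by 2.12-fold. The first stretch separated narrowly, with knockdown replicate 1 at 6.46 CPM and NC replicate 3 at 6.22 CPM. Coverage of the 5′-most blocks of Psme4 relative to its 3′-most blocks, each stretch taking 1 in 3 of its blocks, was −0.92, −1.61 and −1.25 (log2) in knockdown and −3.22, −3.01 and −2.40 in NC, while the median over 35 proteasome genes was −0.94 to −1.18 in knockdown and −1.08 to −1.28 in NC. No Psme4 block passed the usage test, where block 4 had the smallest adjusted p of all coding proteasome blocks (edgeR diffSpliceDGE, 0.529).

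Other extra exons of proteasome genes were counted too rarely to be tested. Block 2 of Psma8, annotated only in a transcript for nonsense-mediated decay, had 7, 13 and 1 counts in knockdown and 2, 0 and 1 in NC. Block 3 of the base gene Psmd1, internal to a non-coding transcript, had 3, 8 and 3 counts in knockdown and 0, 0 and 1 in NC. Block 5 of Psmd14 had 11, 4 and 9 counts in knockdown and 2, 2 and 1 in NC, and block 7 of Psmd9 had 9, 6 and 7 counts in knockdown and 0, 3 and 1 in NC, both at the end of non-coding transcripts. Other blocks did not rise. The decay-class block 9 of Psma5 had 1, 0 and 0 counts in knockdown and 2, 1 and 2 in NC. Block 46 of Psme4 had 0, 2 and 0 in knockdown and 5, 6 and 0 in NC. Block 2 of Psmd14 had 4, 0 and 0 in knockdown and 6, 0 and 3 in NC. Groups also overlapped in block 6 of Psmd14 (0, 4 and 3 in knockdown, 3, 0 and 4 in NC). The same held for block 2 of Psmd5 (16, 7 and 10 against 10, 9 and 6) and block 2 of Psmc1 (5, 2 and 2 against 2, 3 and 1).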
